A study of Mus musculus with 98 samples.

Results

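The 67 single regenerated innate lymphoid cells of the study carry titles of 2 kinds: 32 titles have no numeric ending after the cell number and 35 end in 1. These 67 columns, of 98 in the study, were compared series against series across all genes. What the ending stands for is not stated in the labels, so the 2 series were handled as a possible batch, and any difference in library, sorting day, recipient or cell makeup between them cannot be told apart. Each sample is 1 cell and no animal is named, so each series counts as 1 sample. All differences below therefore have no replicate check, and no test was made.

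Both series hold cells labelled R9-ILCs. They were sorted as CD45.2+ GFP+ Lin- CD127+ cells. Their source was the gut of transplanted hosts lacking Rag2 and Il2rg (Rag2-/-Il2rg-/-), taken after 3 weeks, with the strain given as C57BL/6. Such recipients lack lymphocytes that need rearranged receptors or the common gamma chain, but keep other blood cells such as macrophages and mast cells. The 31 remaining columns are WT-ILCs, sorted as CD45.2+ Lin- CD127+ cells from the intestine of wild-type C57BL/6 mice aged 8 weeks. For cDNA the submitters used the Discover-sc WTA Kit V2, and for libraries the TruePrep DNA Library Prep Kit V2.

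Innate lymphoid cells are lymphocytes without rearranged antigen receptors, which depend on the regulator Id2 and on interleukin 7 signalling through Il7r and Il2rg. In the gut, group 3 cells respond to interleukin 23 through Il23r. They make lymphotoxin and interleukin 22, which guard the epithelium and organise lymphoid tissue.

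Il7r and Ptprc, which encode markers of the sort, and the lymphoid genes Id2 and Il2rg were detected in both series, at unequal levels. Id2 was at 100 TPM (transcript abundance scaled to the same total in each cell) or more in every cell. Il2rg, which the recipients lack, was at 10 TPM or more in every cell, with 75.7, 1110 and 4370 TPM as lowest, median and highest value without ending and 19, 1803 and 5969 TPM with ending 1. Il7r, which encodes CD127, had 15.4, 204 and 1341 TPM without ending and 12.9, 1440 and 3327 TPM with ending 1. Ptprc, which encodes CD45, showed the opposite order by median, with 3.34, 51.4 and 256 TPM without ending and 0.193, 1.34 and 1419 TPM with ending 1. By the log2 ratio of mean TPM it was higher in ending 1, by 0.26, beside a median of 1.66 over all genes. Rag2, the other gene deleted in the recipients, was listed at 0 in all cells except 1 without ending, at 142 TPM.

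The 2 series differed as libraries before any gene is named. Cells had 1187, 2082.5 and 2989 genes at 1 TPM or more (lowest, median, highest cell) without ending, and 1913, 2429 and 6042 with ending 1. At 100 TPM or more the counts were 126, 672 and 1644 genes against 781, 1222 and 2293 genes. The median cell without ending thus had fewer genes at either limit, while the ranges overlapped. At 10 TPM or more the order turned, with a median of 1933.5 genes without ending and 1594 with ending 1. How deeply each cell was sequenced is unknown, since TPM does not keep it.

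Low values separated the series completely. The 1st percentile of the non-zero values of a cell was 0.773, 4.37 and 16.1 TPM without ending and 0.0910, 0.135 and 0.288 TPM with ending 1. In the median cell, 6.91% of the non-zero values were under 10 TPM without ending and 54.6% with ending 1. A value of a few TPM is therefore common in ending 1 and rare without ending, and shares of cells at 1 TPM do not measure the same thing in the 2 series.

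The most abundant gene of a cell also differed. It took 2.67, 18 and 44.3% of all TPM without ending and 0.850, 2.04 and 19.3% with ending 1. One gene held 10% or more of all TPM in 26 of 32 cells without ending and in 1 of 35 cells with ending 1. Without ending, 27 different genes led the 32 cells, among them Fabp1 in 3 cells, Plac8 in 3 and Reg3g in 2, and single cells were led by Ifngr1 at 44.3% or Serp1 at 41.4%. With ending 1, only 6 genes led the 35 cells: B2m in 12, Itm2b in 10, Tmsb4x in 7, Hba-a1 in 3, Ltb in 2 and Rn45s in 1. The 10 highest genes held 63.2% of TPM in the median cell without ending and 9.64% with ending 1.

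**Figure D1:**
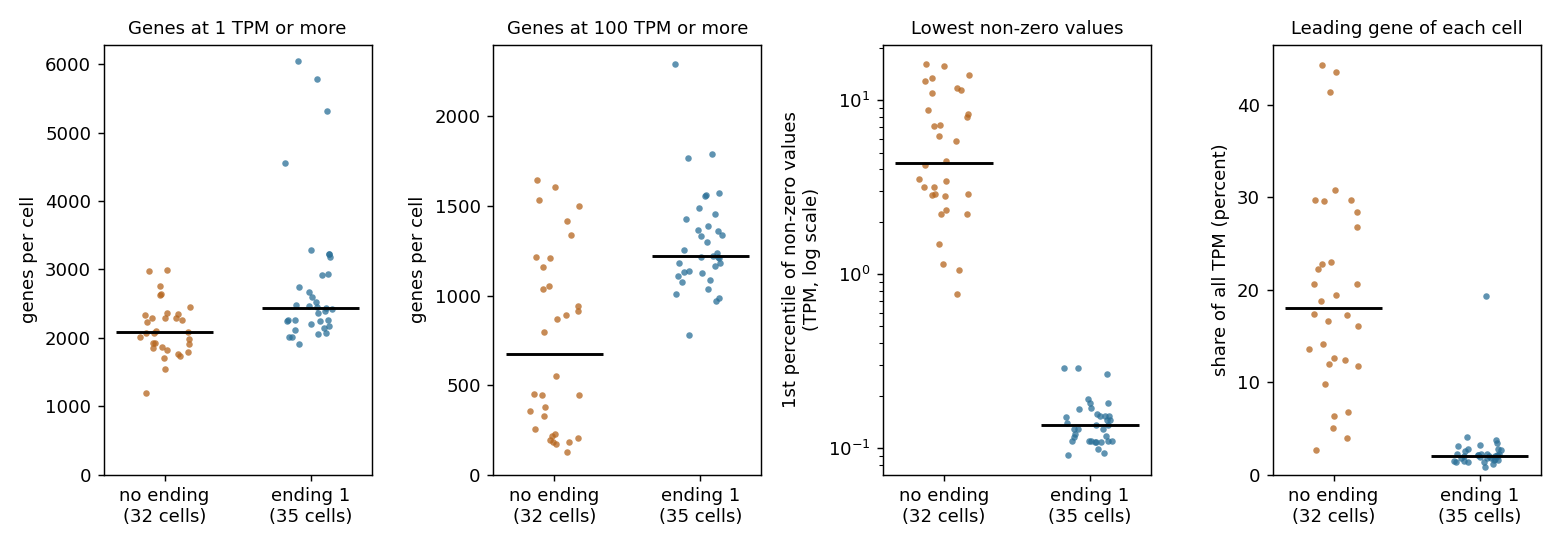
Each point is 1 cell and each bar the median of its title series; the panels give genes at 1 TPM or more, genes at 100 TPM or more, the 1st percentile of non-zero values on a log axis, and the share of all TPM in the leading gene. The lowest non-zero values do not overlap (0.773 TPM and above without ending, 0.288 TPM and below with ending 1).

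Across genes, the comparison used the mean of log2(TPM + 1) over the cells of a series, and differences are given as ending 1 minus no ending, so that negative values are higher without ending. A total of 6499 of 23420 genes reached 1 TPM in at least 7 of the 67 cells. Their median difference was 0.43, with quartiles of -0.25 and 1.15. A difference of 1 or more was reached by 1887 genes higher in ending 1, 29% of those tested, and by 612 genes higher without ending, 9.42%. At 2 or more the counts were 703 genes (10.8%) and 157 genes (2.42%). The median of all genes was 0.17 after each cell was scaled by 470 genes detected in most cells, and also 0.17 with the 10 highest genes of each cell left out. Values below are as deposited, without this shift removed. By the log2 ratio of mean TPM the median of all genes was 1.66, and each value on that measure below stands beside it.

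In most genes the cells of the 2 series overlapped. Only Fos had its lowest cell in one series above the highest in the other, 1 of 6499 genes or 0.0154%, and no gene did so in the other direction (0.0%). The share of cells at 100 TPM or more differed by at least 50 percentage points in 60 genes higher in ending 1 (0.923%) and 22 genes higher without ending (0.339%).

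**Figure D2:**
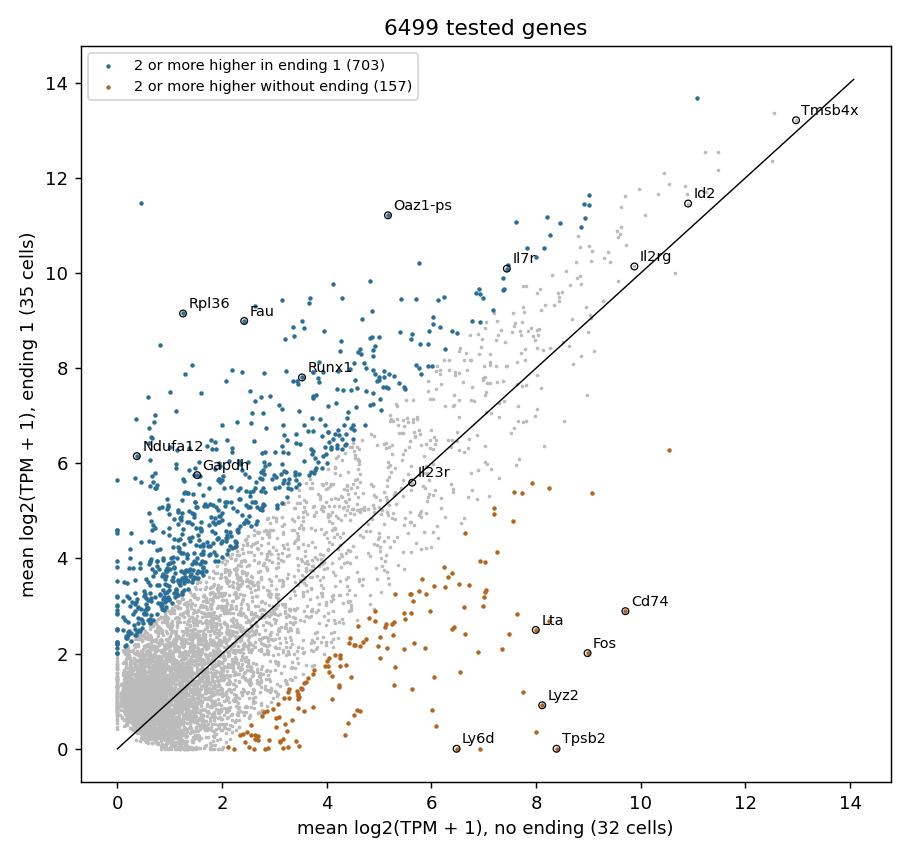
Each point is 1 of the 6499 tested genes, by its mean log2(TPM + 1) over the 32 cells without ending (horizontal) and over the 35 cells with ending 1 (vertical); the line marks equal means. Genes 2 or more higher in ending 1 number 703 and lie above it in blue, and the 157 that are 2 or more higher without ending lie below it in brown.

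Whole profiles sorted by series. By Pearson r over log2(TPM + 1) of the tested genes, the nearest neighbour of every one of the 67 cells belonged to its own series. The median r was 0.358 between cells without ending, 0.345 between cells with ending 1 and 0.287 between the series. The first principal component held 8.29% of the variance and ran from -112 to 10.5 in cells without ending and from -9.21 to 158 in cells with ending 1. Within a series it followed the number of genes at 1 TPM, with a Spearman rho of 0.79 over 32 cells and 0.88 over 35 cells; these values share the same table. Restricted to genes at 1 TPM or more in both cells of a pair, the median r was 0.660 without ending, 0.207 with ending 1 and 0.285 between them, and the nearest neighbour was in the same series for 35 of 67 cells. By nearest neighbour the series were thus less separate on genes listed in both cells. By median r, cells without ending stood further apart from the other series there. Cells with ending 1 were less alike among themselves than across the series.

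Cell numbers recur in both series, 26 of them in each. Cells with the same number were no more alike across the series (median r 0.285, from 0.235 to 0.320) than cells with different numbers (median 0.287, highest 0.344), and none of the 26 had its own number as best match. In the WT columns, by contrast, the 8 same-number pairs had r from 0.844 to 0.995 over genes that both columns detected. On that measure the 26 R9 pairs had a median r of 0.283, from 0.168 to 0.514, beside 0.286 for other pairs, and 1 had its own number as best match.

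The values themselves fell into different ranges. Over the tested genes and cells, 70.0% of the values were listed at 0 without ending and 51.1% with ending 1. Values between 1 and 10 TPM made up 2.82% against 13.9%, values between 10 and 100 TPM 16% against 6.09%, and values between 100 and 1000 TPM 10.2% against 15.2%. In ending 1 the values were split into a low group under 10 TPM and a high group over 100 TPM, whereas without ending the non-zero values were centred between 10 and 1000 TPM.

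The difference varied with transcript length. Among 566 genes with a longest annotated transcript under 1000 bases, 356 (62.9%) were 1 or more higher in ending 1 and 31 (5.48%) higher without ending, with a median difference of 1.67. Among 4200 genes with transcripts of 2000 bases or more, the counts were 784 (18.7%) and 448 (10.7%), with a median of 0.23. The median difference was 2.12 for 187 genes of 500 to 750 bases and 0.14 for 1029 genes of 4000 to 6000 bases. It did not follow length at the ends of the range, with 0.76 for 91 genes under 500 bases and 0.25 for 562 genes over 6000 bases. Across 6455 genes, which are not independent, Spearman's rho of length with the difference was -0.31, and that of GC content 0.10. Genes 2 or more higher in ending 1 had a median transcript of 1246 bases, those 2 or more higher without ending 2391 bases, and all tested genes 2605 bases. Length moves with every result on short-mRNA genes below, and its part in them was not tested.

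**Figure D3:**
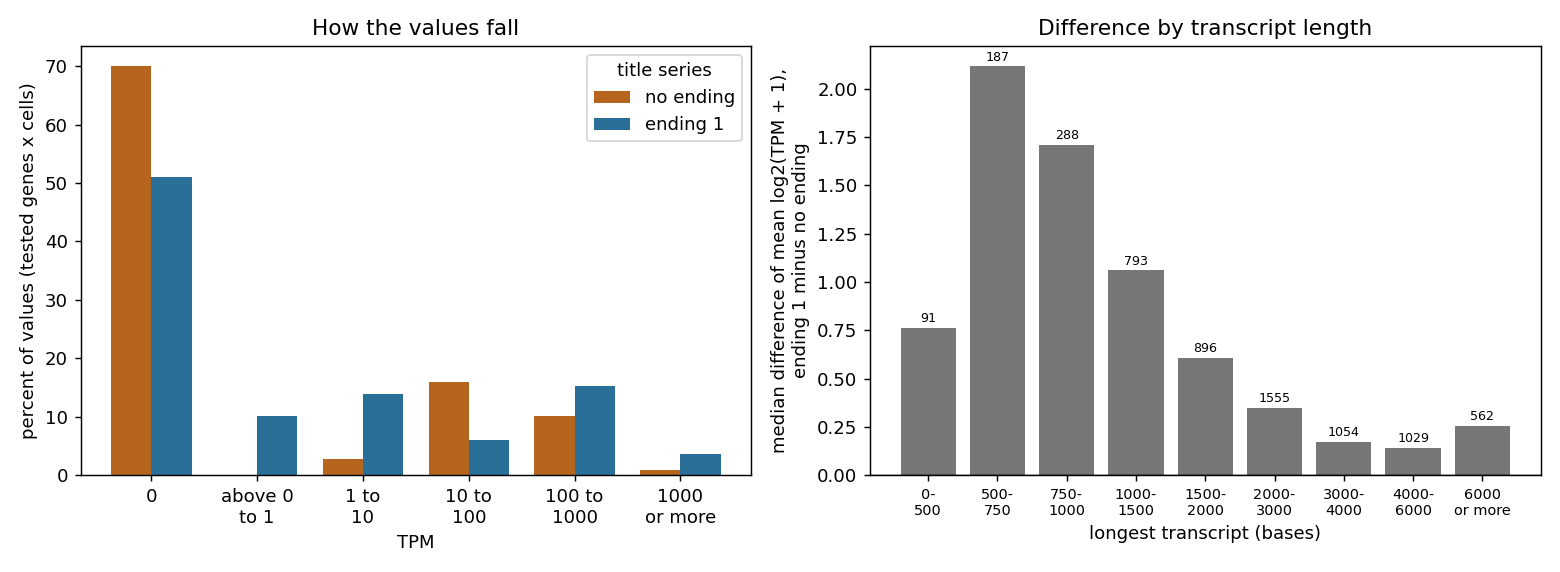
Left, the share of values (tested genes times cells) in each TPM range for the 2 title series; right, the median difference by length of the longest annotated transcript, with the number of genes above each bar. Values of 10 to 100 TPM were commoner without ending (16 against 6.09%), and the median difference was 2.12 at 500 to 750 bases and 0.14 at 4000 to 6000 bases.

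By mean log2(TPM + 1), most genes of the translation and energy machinery were higher in ending 1. Of 81 tested ribosomal protein genes, 67 were 1 or more higher and 1 lower, with a median difference of 2.60. Of 74 genes of oxidative phosphorylation, the respiratory chain and ATP synthase of mitochondria, 65 were higher and 0 lower (median 2.93), and of 73 mitochondrial ribosome genes 48 and 0 (median 1.42). These shares exceed the 29% over all genes, and they come with median transcript lengths of 914, 891.5 and 1316 bases. Of tested genes with transcripts under 1000 bases 62.9% were higher in ending 1, and of those with 1000 to 1500 bases 52.0%. Both scalings kept the 3 medians above 1, at 1.06 or more. By the log2 ratio of mean TPM, however, the ribosomal protein and oxidative phosphorylation medians were 0.85 and 1.16, below the 1.66 of all genes on that measure. Ribosomal protein genes together took 6.13% of all TPM in the median cell without ending and 4.76% with ending 1, the opposite order. Rpl36, a large-subunit protein, had 0, 0 and 853 TPM (lowest, median, highest) without ending and 0, 791 and 3487 TPM with ending 1, a difference of 7.89. Rps28, a small-subunit protein, was listed at 0 in 29 of 32 cells without ending and in 2 of 35 with ending 1, a difference of 7.66. Ribosomal protein reads can be shared with processed pseudogenes, so single values are uncertain. Rpl26 was the exception, with a median of 193 TPM without ending and 0.246 TPM with ending 1, a difference of -3.86.

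The other genes with large differences in this direction were named by their size, and no common theme was tested. Shfm1, a proteasome subunit, was listed at 0 in 30 of 32 cells without ending and had a median of 486 TPM with ending 1, a difference of 6.82. Snrpe, Snrpg and Snrpf, core proteins of the spliceosomal particles, differed by 6.56, 5.99 and 4.93. Psmb7, a proteasome core subunit, differed by 6.18 and Ndufa12, a complex I subunit, by 5.78. Fau, whose product is processed into a ribosomal protein, had medians of 0 and 811 TPM. Sec61g, part of the channel that passes proteins into the endoplasmic reticulum, was listed at 0 in all 32 cells without ending and was at 100 TPM or more in 68.6% with ending 1. By 3 divided by the number of cells, counting error alone allows a share of up to 9.38% without ending. Failed detection is not covered by that limit. Oaz1-ps, annotated as a pseudogene, had medians of 135 and 2411 TPM and may share reads with its parent gene. Of 46 proteasome genes 29 were higher (63.0%) and 2 lower, and of 46 splicing factors 19 higher (41.3%) and 0 lower, against 29% and 9.42% of all genes. The median transcripts of these lists had 1490.5 and 2415 bases. Over tested genes of 1000 to 1500 bases the shares were 52.0% and 5.93%, and over those of 2000 to 3000 bases 24.2% and 11.2%.

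Genes that nearly all cells use differed too. Of 23 tested housekeeping genes 12 were 1 or more higher in ending 1 and 0 lower, against 29% and 9.42% of all genes. The housekeeping median was 1.02, and 0.25 after scaling by common genes. Gapdh, the glycolytic enzyme, was listed at 0 in 24 of 32 cells without ending and in 1 of 35 with ending 1, and its highest values were 781 and 240 TPM. A listed 0 can thus be a failed estimate, and genes are described here as listed at 0 rather than absent. Of 14 glycolysis genes 7 were higher in ending 1 and 1, Ldhb at -1.28, higher without ending, against 29% and 9.42% of all genes.

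Some long-mRNA genes of haematopoietic regulation were also higher in ending 1, beside a median difference of 0.23 for all genes with transcripts of 2000 bases or more. Runx1 (chr16:92601466-92826149 in GRCm38), a transcription factor needed for blood formation, had 0, 19.7 and 193 TPM without ending and 1.19, 421 and 1612 TPM with ending 1. The difference was 4.28, and 27 of 35 cells with ending 1 lay above the highest cell without ending. The share of cells at 100 TPM or more was 6.25% (95% Clopper-Pearson interval 0.766 to 20.8) against 77.1% (59.9 to 89.6); all intervals cover counting error only. Hoxa9 (chr6:52223100-52231089), a homeobox factor of early blood cells, had 0, 15.4 and 407 TPM against 1.21, 549 and 3044 TPM, a difference of 4.72. In ending 1, Runx1 and Hoxa9 mostly rose and fell together over cells. Their log2(TPM + 1) was 1.13 and 1.14 in the lowest cell, and 10.7 and 11.5 in the cell highest for Runx1. Without ending, either gene was often listed at 0 where the other was detected. The cause of the joint pattern was not tested. Meis1, a partner of Hoxa9, differed by -0.13. Of the 5 tested members of the HOX and early haematopoietic list, 3 were higher in ending 1 and 0 lower, against 29% and 9.42% of all genes and 18.7% and 10.7% of those with transcripts of 2000 bases or more.

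Signalling genes went both ways. Of 20 tested genes of interleukin receptors and their signalling, 3 were 1 or more higher in ending 1 (15%) and 6 without ending (30%), against 29% and 9.42% of all genes. The list median was -0.07, and 1.34 by the log2 ratio of mean TPM, below the 1.66 of all genes on that measure. Il2rb, a receptor chain for interleukins 2 and 15, differed by -2.06 and Stat3, a transcription factor downstream of many cytokines, by -2.03. The genes named next were chosen for their size in the direction of ending 1. Ptpn6, the phosphatase SHP-1, was listed at 0 in 18 of 32 cells without ending and in 1 of 35 with ending 1, with medians of 0 and 775 TPM. Nr1d1, a nuclear receptor of the circadian clock, had medians of 40.3 and 574 TPM. Il7r (chr15:9505788-9530176) differed by 2.65, and 19 of 35 cells with ending 1 exceeded the highest cell without ending. Klrb1b, an inhibitory receptor of NK and innate lymphoid cells, had medians of 70.1 and 802 TPM. Myd88, the adaptor of interleukin 1 and Toll-like receptors, differed by 2.50 with medians of 0 and 2.31 TPM. Fli1, an ETS factor, differed by 1.74, within SDs over cells of 2.97 and 3.60.

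Several genes of mast cells were higher without ending. Of 6 tested members of the mast cell list, 4 were 1 or more higher without ending and 0 in ending 1, with a median of -4.35, against 9.42% and 29% of all genes. Tpsb2, Cma1 and Mcpt4 passed the detection limit only through cells without ending, so the filter favours this direction. Over members at 1 TPM in any cell the median was -0.18. Kit, the receptor for stem cell factor, and Srgn, a granule proteoglycan, which other blood cells also express, differed by 0.44 and 0.61. Tpsb2 (chr17:25366305-25369098), a tryptase stored in mast cell granules, had 0, 497 and 1646 TPM without ending and was listed at 0 in all 35 cells with ending 1. There 3 divided by the number of cells allows a share of up to 8.57% by counting error alone, with failed detection not covered. The difference was -8.39, and 31 of 32 cells without ending were at 10 TPM or more. Cpa3, a granule carboxypeptidase, had medians of 411 and 0 TPM and was at 10 TPM or more in 93.8% against 2.86% of cells. Cma1, a chymase, was at 10 TPM or more in 84.4% of cells without ending and listed at 0 in every cell with ending 1. Tpsb2, Cpa3 and Cma1 were all at 10 TPM or more in 24 of 32 cells without ending, and in 0 of 35 with ending 1.

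In the series without ending, mast cell transcripts were thus listed in most cells beside Id2, Il2rg and Il7r. The 18 marker genes other than Kit and Srgn summed to 67.3, 1349 and 4876 TPM without ending and to 0, 0 and 615.9 TPM with ending 1. All 20 summed to 76.0, 1800 and 5702 TPM and to 10.4, 950.0 and 4339 TPM. The list was not carried as a whole: Ms4a2, a chain of the IgE receptor, and Hdc, the histamine enzyme, were listed at 0 in all cells without ending, and Fcer1a was detected in 1 of them. Mcpt4 and Mrgprb2 were detected in 8 and 6 of 32 cells. In all, 7 of the 20 were listed at 0 without ending and 14 with ending 1. Whether these transcripts came from the sorted cells or from other cells was not tested.

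Macrophage genes were split between the series. Of 9 tested members of the macrophage and dendritic list, 5 were 1 or more higher without ending and 2 in ending 1, against 9.42% and 29% of all genes. The list median was -2.07. It was 1.41 over the members at 1 TPM in at least 30% of cells and -0.34 over members at 1 TPM in any cell. Lyz2, the lysozyme of macrophages, had 0, 337 and 2688 TPM without ending and 0, 0 and 1874 TPM with ending 1, where 24 of 35 cells were listed at 0. The complement genes C1qc, C1qb and C1qa differed by -3.42, -2.61 and -2.07 and were at 10 TPM or more in 53.1%, 40.6% and 31.2% of cells without ending and in none with ending 1. Tyrobp, a signalling adaptor of myeloid and NK cells, was at 10 TPM or more in 37.5% against 0% of cells. Fcer1g and Cst3, which lymphoid cells also express, went the other way, by 2.64 and 1.41. The summed macrophage and dendritic list of 17 genes was higher in ending 1, with medians of 2231 and 4950 TPM. In ending 1 the sum came mostly from Fcer1g and Cst3, with means of 3871 and 925 TPM there and 938 and 847 TPM without ending. C1qa, C1qb, C1qc and Tyrobp had means of 0.303 TPM or less with ending 1, so the sum does not measure macrophage transcripts. Csf1r, Mrc1 and Fcgr1 were listed at 0 in all cells with ending 1 and detected in 4, 4 and 1 cells without ending.

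Of 6 tested genes of MHC class II presentation, 5 were higher without ending and 0 in ending 1, with a median of -4.84, against 9.42% and 29% of all genes. Over members at 1 TPM in any cell the class II median was -0.75, since the filter keeps members mainly through the series where they are high. Cd74, the invariant chain, had 111, 1056 and 3747 TPM without ending and 0, 3.35 and 4746 TPM with ending 1, so that all 32 cells without ending but only 11.4% with ending 1 were at 100 TPM or more. H2-Ab1 and H2-Aa, the beta and alpha chains of one class II molecule, had medians of 282 and 133 TPM without ending and 0 with ending 1. H2-Eb1 had medians of 59.4 and 0 TPM. Ctss, the protease that trims the invariant chain, had medians of 283 and 4.76 TPM, with a log2 ratio of mean TPM of 0.21. Class II genes are expressed by group 3 innate lymphoid cells as well as by macrophages and dendritic cells.

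The log2 sums of some of these genes moved together over the cells mainly on the TPM scale. Over 32 cells without ending, the sums of 3 mast cell and 4 class II genes correlated at r = 0.94 on TPM and at r = 0.47 after scaling by common genes. Mast cell sums and ILC gene sums correlated at r = 0.91 on TPM and at r = -0.12 after that scaling. The SD over cells fell from 1.36 to 0.23 for the ILC sum and from 1.58 to 0.58 for the mast cell sum. Little spread in the ILC sum was thus left to correlate after scaling. The points share 1 table and the scaling of each cell to the same total.

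Immediate early genes, which are switched on quickly when a cell is stimulated, were mostly higher without ending. Of 13 tested members, 10 were 1 or more higher without ending and 0 in ending 1, against 9.42% and 29% of all genes. Their median was -2.07, and -3.59 over the 9 members with transcripts of 2000 bases or more. It was -0.70 by the log2 ratio of mean TPM and -0.71 over all list members without a filter on low values. Fos (chr12:85473890-85477273), a subunit of AP-1, had 82.5, 628 and 4818 TPM without ending and 0, 2.57 and 16.2 TPM with ending 1, so the series did not overlap. Its difference was -6.97. Jun, its partner, had medians of 134 and 0.987 TPM. Dusp1, a phosphatase of MAP kinases, had 182 and 2.65 TPM, Zfp36, which destabilises cytokine mRNAs, 148 and 2.27 TPM, and Klf6, a zinc finger factor, 40.4 and 0.710 TPM. Egr1 differed by -3.77. Jund, Ier5 and Btg2 lay between -0.62 and 0.01.

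Promoters are shown for Fos, the gene whose series did not overlap, for 2 immediate early genes with a motif match, and for 2 class II genes with one. Sequences of RefSeq (GRCm38.p6) span the gene start and the bases just before it, 5′ to 3′, with motif matches on either strand in capitals. In the immediate early genes capitals mark the CArG box, bound by serum response factor, or the cAMP response element TGACGTCA. In the class II genes they mark only the Y box CTGATTGG, and a cAMP response element in H2-Aa is left in small letters. The CArG box was found in 1.63% of 32851 promoters, the cAMP response element in 1.79% and the Y box in 4.10%; no overlap between motifs was counted.
Fos promoter, chr12:85473640-85473939, plus strand: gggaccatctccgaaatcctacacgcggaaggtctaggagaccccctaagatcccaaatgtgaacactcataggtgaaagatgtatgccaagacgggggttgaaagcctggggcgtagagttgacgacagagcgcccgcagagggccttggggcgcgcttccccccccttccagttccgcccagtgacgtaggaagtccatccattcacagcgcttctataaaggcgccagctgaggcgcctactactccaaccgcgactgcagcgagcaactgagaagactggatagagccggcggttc
Dusp1 promoter, chr17:26508423-26508722, minus strand: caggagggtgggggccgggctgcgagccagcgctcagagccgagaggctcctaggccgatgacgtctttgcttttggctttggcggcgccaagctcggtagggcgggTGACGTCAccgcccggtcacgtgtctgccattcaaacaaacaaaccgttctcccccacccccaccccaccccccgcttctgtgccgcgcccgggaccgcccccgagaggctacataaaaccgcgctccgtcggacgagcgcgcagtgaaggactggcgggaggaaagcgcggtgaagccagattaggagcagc
Zfp36 promoter, chr7:28379179-28379478, minus strand: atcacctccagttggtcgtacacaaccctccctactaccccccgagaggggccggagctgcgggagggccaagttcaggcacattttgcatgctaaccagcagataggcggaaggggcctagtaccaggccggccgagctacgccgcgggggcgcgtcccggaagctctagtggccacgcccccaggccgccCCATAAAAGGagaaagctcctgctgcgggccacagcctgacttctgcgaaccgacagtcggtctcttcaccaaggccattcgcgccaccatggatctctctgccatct
H2-Aa promoter, chr17:34287774-34288073, minus strand: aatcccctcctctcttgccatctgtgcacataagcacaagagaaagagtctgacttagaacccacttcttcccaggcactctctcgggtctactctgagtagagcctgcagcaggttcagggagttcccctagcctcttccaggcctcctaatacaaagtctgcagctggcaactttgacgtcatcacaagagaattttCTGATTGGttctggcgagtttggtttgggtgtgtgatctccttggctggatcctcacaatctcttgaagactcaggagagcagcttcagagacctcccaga
H2-Eb1 promoter, chr17:34305617-34305916, plus strand: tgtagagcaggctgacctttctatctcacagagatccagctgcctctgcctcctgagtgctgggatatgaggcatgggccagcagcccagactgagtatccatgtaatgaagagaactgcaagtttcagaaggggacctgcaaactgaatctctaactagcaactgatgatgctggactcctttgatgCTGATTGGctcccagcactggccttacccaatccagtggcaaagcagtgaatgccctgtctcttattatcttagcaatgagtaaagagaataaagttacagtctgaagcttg
Of 22 immediate early genes with a promoter, 2 held a CArG box (Egr2, Zfp36) and 3 the cAMP response element (Btg2, Dusp1, Ppp1r15a), and of 9 class II genes 3 held the Y box. Counted by gene, the CArG box was found in 1.81% of 27025 genes, the cAMP response element in 2.03% and the Y box in 4.70%. Egr2 was listed at 0 in every R9 cell. A match is a description of these letters, and the Fos window held neither motif in the form searched. Bases outside the window and sites with other letters were not searched, so this does not show that Fos lacks such sites.

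Lymphoid surface and cytokine genes were split between the series. Lta, which encodes lymphotoxin alpha, had 0, 344 and 1646 TPM without ending and 0, 3.69 and 1518 TPM with ending 1, a difference of -5.50, while its partner Ltb had 90.4, 1111 and 6362 TPM against 52.5, 5064 and 14146 TPM, a difference of 1.79. Tnf differed by -2.43 and Tnfsf11, the RANK ligand, by 1.97. Cd7, a surface glycoprotein of lymphocytes, had a median of 128 TPM without ending and did not exceed 5.85 TPM in any cell with ending 1. Ly6d, a surface protein of early lymphoid cells, was at 100 TPM or more in 71.9% of cells without ending and listed at 0 in all with ending 1. Plac8 had medians of 426 and 1.36 TPM. Lck, a kinase of T cell receptor signalling also found in innate lymphocytes, had medians of 103 and 0.436 TPM.

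Trafficking and cell cycle genes 1 or more apart were mostly higher without ending. Of 14 chemokine and homing receptor genes, 8 were 1 or more higher without ending and 0 in ending 1, against 9.42% and 29% of all genes. Ccr7, with means of 14.7 TPM without ending and 0.0116 TPM with ending 1, passed the detection limit only through cells without ending. For such members the filter favours this direction. The list median was -1.07, and 0 with medians over cells. By the log2 ratio of mean TPM it was 0.67, below the 1.66 of all genes on that measure. Icam1, an adhesion ligand, had medians of 45.9 and 0 TPM, and Ccr2 was at 10 TPM or more in 43.8% against 0% of cells. S1pr4, a sphingosine phosphate receptor, had medians of 39.7 and 0.536 TPM and Rgs1, a regulator of chemokine receptor signalling, 73.1 and 0 TPM. Of 19 cell cycle genes, 8 were higher without ending and 1 in ending 1, against the same shares of all genes. Stmn1, a microtubule regulator of dividing cells, had medians of 154 and 0 TPM and Ccnd3, a D cyclin, 116 and 1.32 TPM, although the log2 ratio of its mean TPM was 0.03. Pcna, the replication clamp, had 0 and 5.92 TPM. The cytokine-induced inhibitor Cish had medians of 111 and 1.20 TPM, and Pim2, a survival kinase, 117 and 1.55 TPM.

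**Figure D4:**
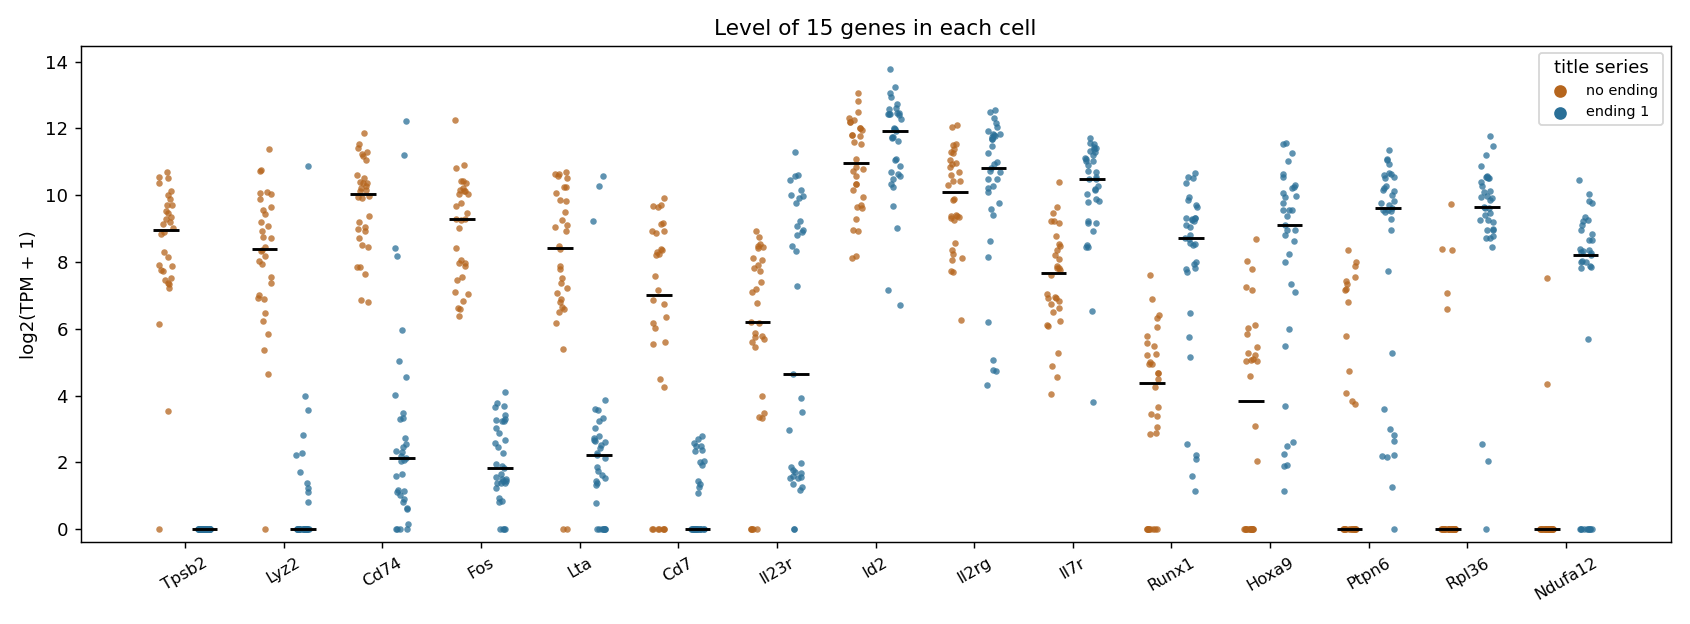
Each point is 1 cell and each bar the median of its title series, on the scale log2(TPM + 1), for 15 genes. Fos does not overlap between the series (82.5 TPM and above against 16.2 TPM and below), Tpsb2 is listed at 0 in all 35 cells with ending 1, and Id2 and Il2rg overlap widely.

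Genes that define group 3 cells were split by count. Of 18 tested members of the list, 3 were higher in ending 1 (Ltb and Tmem176b among them), 3 without ending (Lta, Ccr6 and Cd81) and 12 lay between, with a median of -0.06 against 0.43 for all genes. These counts are 16.7% each way, against 29% and 9.42% of all genes. By the log2 ratio of mean TPM the list median was 1.3, below the 1.66 of all genes on that measure, and Ccr6 and Cd81 were at 0.58 and 0.74. The summed list had a median of 4032 TPM without ending and 13601 TPM with ending 1. With the 10 highest genes of each cell left out, Ltb and Tmem176b turned to -0.59 and -0.25. Il23r differed by -0.04. Its share of cells was 46.9% against 48.6% at 100 TPM, but 78.1% against 57.1% at 10 TPM and 84.4% against 94.3% at 1 TPM, so the order of the series depended on the limit. Ncoa7 showed the same turn, with 59.4% against 65.7% of cells at 100 TPM and 100% against 68.6% at 10 TPM. Ccr6, the chemokine receptor of lymphoid tissue inducer cells, had medians of 119 and 3.36 TPM. Il22 was at 10 TPM or more in 25% against 11.4% of cells, and Il17a was listed at 0 in all cells.

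Genes of the other innate lymphoid groups ranged from listed at 0 to detected in most cells. Of 5 tested group 2 genes, 3 were 1 or more higher without ending and 0 in ending 1. Of 6 tested group 1 and NK genes the counts were 4 and 1, against 9.42% and 29% of all genes. Ncr1 and Nkg7, among those higher without ending, passed the detection limit only through cells without ending, so the filter favours this direction. Klrb1b, the 1 higher in ending 1, was at 10 TPM or more in 90.6% against 85.7% of cells. The summed group 1 and NK list had medians of 266 and 818 TPM, and the group 2 list 194 and 24.8 TPM. The group 2 cytokines Il13, Il5 and Il4 and the receptor Il1rl1 were listed at 0 in every cell. Gata3, the regulator of group 2 cells, had medians of 17.5 and 0 TPM, a difference of -2.16, and Arg1 was at 10 TPM or more in 53.1% against 2.86% of cells. Ncr1, the natural cytotoxicity receptor of group 1 and some group 3 cells, was detected in 10 of 32 cells without ending and in none with ending 1. Ccl5 was at 10 TPM or more in 34.4% against 2.86%, and Ifng, Gzma and Prf1 were listed at 0 in every cell. Among core genes, Tcf7, a factor of lymphoid precursors, had medians of 153 and 3.17 TPM, with a log2 ratio of mean TPM of 0.23, and Cd52 203 and 8.5 TPM, while Thy1 had 0 and 3.74 TPM and was at 10 TPM or more in 15.6% against 40% of cells.

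Among genes at 1 TPM or more in every cell and within 0.5 between the series, the most abundant were chosen for description. Tmsb4x, an actin-binding peptide, had medians of 9668 and 10791 TPM and a difference of 0.24, which was -1.24 without the 10 highest genes of each cell. Cyba and Psmb8 differed by 0.27 and 0.32 and Ddx5, an RNA helicase, by 0.11. Id2, outside that range, had medians of 1997 and 3883 TPM and a difference of 0.55. Id2 and Il2rg were below 0 after scaling by common genes, at -0.53 and -0.82, so their order depends on the scaling. Of 17 MHC class I genes, 5 were higher in ending 1 (29.4%, near the 29% of all genes) and 1, Tap1, without ending. Of these 5, H2-Q4, H2-Q6 and H2-Q10 were listed at 0 in all cells without ending and passed the detection limit only through ending 1. H2-Q10 had a mean of 3.73 TPM there. The class I median of 0.77 was -0.31 with common-gene scaling and -0.71 without the 10 highest genes of each cell. B2m, the light chain, moved from 0.81 to -0.28 with common-gene scaling. The interferon response list had 4 of 18 genes higher in ending 1 and 0 lower, a share of calls below the 29% of all genes. Of 16 NF-kappa B genes, 4 were higher in ending 1 (25%) and 3 without ending (18.8%), against 29% and 9.42% of all genes.

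The cytoskeleton genes split by member: 8 of 22 were higher in ending 1, among them Myl6 at 3.73 and Arpc3 at 2.76, and 7 without ending, among them Tubb5 at -2.99 and Coro1a at -2.36. These are 36.4% and 31.8%, against 29% and 9.42% of all genes. The cytoskeleton median was -0.02, below the 0.43 of all genes, and -1.30 with the 10 highest genes of each cell left out.

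**Figure D5:**
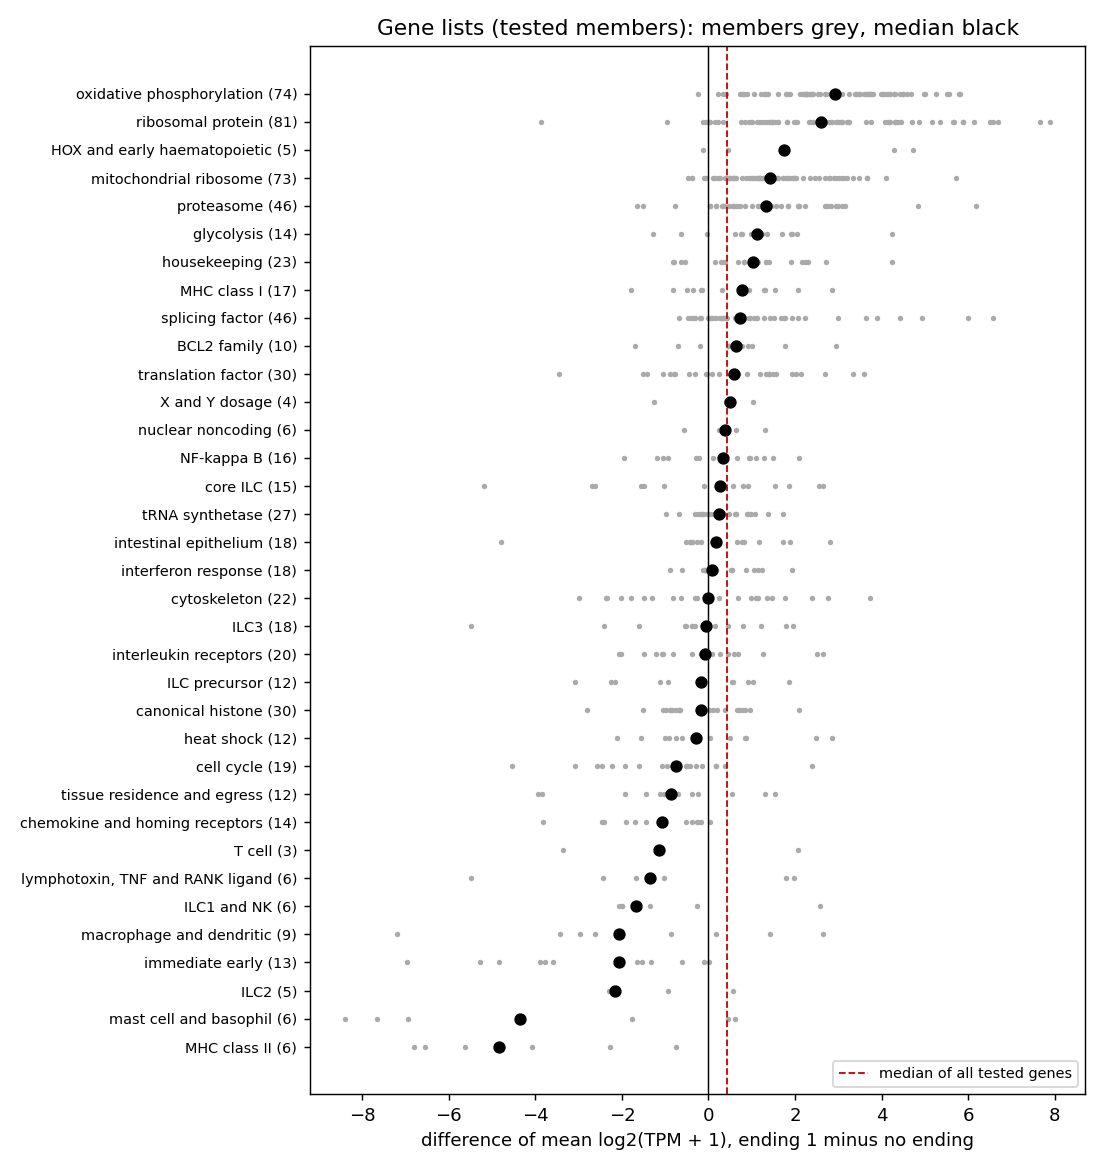
Gene lists with at least 3 tested members, sorted by the median difference of mean log2(TPM + 1), ending 1 minus no ending; grey points are members, black points medians, and the dashed line marks the 0.43 of all tested genes. Oxidative phosphorylation (2.93) and ribosomal protein genes (2.60) stand at the top, and mast cell (-4.35) and MHC class II genes (-4.84) at the bottom. Over members at 1 TPM in any cell the mast cell and class II medians were -0.18 and -0.75.

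Epithelial and red cell transcripts appeared in both series, with very high values in single cells. Of 18 tested epithelial genes, 4 were higher in ending 1 and 1 without ending, against 29% and 9.42% of all genes. The summed epithelial list ran over 51.6, 2229 and 436081 TPM without ending and 9.44, 746 and 20948 TPM with ending 1. Fabp1, the fatty acid binding protein of enterocytes, had medians of 326 and 1.82 TPM, was at 10 TPM or more in 75% against 22.9% of cells and reached 435758 TPM in 1 cell without ending. Tff3, a goblet cell peptide, was at 100 TPM or more in 6.25% against 37.1% of cells, the opposite order, although the log2 ratio of its mean TPM was -2.95. Hba-a1, a haemoglobin chain, was at 100 TPM or more in 6.25% against 25.7% of cells and reached 193471 TPM in 1 cell with ending 1. Hba-a2, a near-identical copy with which it may share reads, was at 10 TPM or more in 62.5% against 80% of cells. T cell genes were mostly listed at 0, with Cd3g at 100 TPM or more in 18.8% against 25.7% of cells. Y-linked genes were split. Ddx3y was detected in 8 of 32 cells without ending and in none of 35 with ending 1, and Eif2s3y was also listed at 0 throughout ending 1. Uty went the other way, listed at 0 in all cells without ending but not in all with ending 1, and Kdm5d was listed at 0 in every cell. Xist, of the X chromosome, was listed at 0 in all cells without ending but not in all with ending 1.

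The WT-ILC columns, from a table that was normalized separately, were set beside the 2 series as 22 cells after columns with similar values were joined. Of the 157 genes 2 or more higher without ending, the WT mean was nearer to ending 1 for 128 (81.5%). Of the 703 genes 2 or more higher in ending 1, it was nearer to no ending for 455 (64.7%). The genes were chosen on the R9 contrast, and each level is set across tables. Tpsb2 and Cma1 were listed at 0 in all WT cells, and Fos had a median of 13.9 TPM there, between the 628 and 2.57 TPM of the R9 series. Lta had a median of 33.7 TPM and Cd7 30.1 TPM in WT cells. Runx1 was at 100 TPM or more in 0% of the 22 WT cells and Hoxa9 in 4.55%, below both R9 series.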

How the data were processed

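Data were single-cell transcript levels of 67 R9-ILC and 31 WT-ILC columns, each 1 cell in the labels. The submitters' processing notes name HISAT2 2.1.0, StringTie 1.3.4, SAMtools 0.1.19, bcl2fastq and the build mm10. The authors deposited TPM in 2 tables, normalized separately. TPM holds no depth, so precision is limited by the number of cells.

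From these, mean log2(TPM + 1) per series was compared over genes at 1 TPM in at least 10% of the R9 cells, with pandas 2.3.3 and numpy 2.4.6 in Python 3.11.15 (intervals by scipy 1.17.1, plots by matplotlib 3.10.9). A gene was called past a difference of 1. Shares of cells carry 95% Clopper-Pearson intervals. Each series is 1 sample, so no p-value was computed. As a check of the calculation only, the difference was also computed on values shuffled within each gene, with known shifts put into some genes.

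WT columns with r above 0.8 over genes detected in both were joined, a limit set after seeing the data; that joined columns are 1 cell is an assumption. Genes were matched by symbol or synonym to GENCODE M21 (99.3% of tested genes). The same-number columns of the R9 series showed no pairing (r 0.285 against 0.287).

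Series and lists were chosen with earlier results of these data known. Named genes are the 15 largest differences in each direction among genes at 1 TPM in 50% of the higher series' cells (no predicted, ribosomal protein or mitochondrial genes), the 8 largest share differences each way, the 8 highest even genes, and up to 5 members of each list; others, such as Ptpn6, Nr1d1, Il23r, Ncoa7, Klf6, Rpl26, Il22, C1qa, Cst3, Pcna, Tnfsf11 and B2m, were chosen once their values were known. Tried as alternatives were another pseudocount, scaling, gene or cell filter and kind of mean. One gene is not reported here.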

Additional observations from a re-analysis of the deposited data

How the results depend on the processing

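No result has a test, so only the size and direction of values could change. Of 293 list medians under the alternatives, 259 moved by less than the SD over cells, 31 moved by more and 3 that were 1 or more in size changed sign; of 1429 gene values, 1364, 54 and 11 did so. Sign changes of any size, small values included, numbered 35 among list medians and 61 among gene values. The cause of each change was not tested. With a pseudocount of 0.1 TPM, 3006 genes were higher in ending 1, and the medians were -6.21 for mast cell, -6.79 for MHC class II, 3.59 for ribosomal protein and 4.26 for oxidative phosphorylation genes. With 10 TPM, 983 genes were higher in ending 1 and 166 without ending, with mast cell at -2.54 and class II at -2.73. Scaling by common genes left 1218 genes higher in ending 1. With the 10 highest genes of each cell left out, 1122 genes were higher without ending, the medians were -0.71 for MHC class I, -1.30 for cytoskeleton and 0.034 for housekeeping genes, and Itm2b (-1.30), Ltb (-0.59), Tmem176b (-0.25), B2m (-1.74), Id2 (-1.16), Tmsb4x (-1.24) and the class I median changed sign. Without a gene filter the medians were -0.18 for mast cell, -0.34 for macrophage, -0.71 for immediate early and -0.75 for class II genes, with rarely detected members counted in. With 1 TPM in 30% of cells, 353 genes were higher without ending, and the medians were -6.93 for mast cell, 1.41 for macrophage (sign changed), -3.59 for immediate early and -2.34 for cell cycle genes. The log2 ratio of mean TPM gave a median of 1.66 over all genes and 4340 genes higher in ending 1. Medians were then 1.3 for ILC3, -5.40 for macrophage, -0.70 for immediate early, 1.57 for NF-kappa B, 1.6 for interferon, 0.85 for ribosomal protein, 1.16 for oxidative phosphorylation and 0.67 for chemokine receptor genes, the ILC3 and chemokine receptor medians with their signs changed. The interleukin receptor and epithelial medians were 1.34 and -3.72, also with changed signs, as were Ccnd3 (0.030), Ccr6 (0.58), Cd81 (0.74), Ctss (0.21), Ptprc (0.26), Tcf7 (0.23) and Tff3 (-2.95). With medians over cells, macrophage and chemokine receptor genes stood at 0, class II at -6.49, and Ifngr1 at 0.77, with its sign changed. Only transcripts of 2000 bases or more, an alternative added after seeing the data, left 784 genes higher in ending 1. The medians were then 0.44 for the 1 mast cell gene left (sign changed), -3.59 for immediate early, -0.75 for the 1 class II gene left and 1.22 for oxidative phosphorylation genes. The share of cells with their nearest neighbour in the same series was 79.1% without genes differing by 2 or more, 53.7% by Spearman's rho over genes in both cells and 52.2% by Pearson's r over them (added later). With the shared cell number as a replicate block (26 numbers), 1943 genes were higher in ending 1 and 612 without ending, with a median of 0.43. The median r was 0.285 between same-numbered and 0.287 between other cells of the series, so the numbers give no pairing. Each series counts as 1 sample, so no replicate could be left out. Cell number limits the shares, and unknown depth limits the reading of values listed at 0.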
